A study of Mus musculus with 8 samples.

Results

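The genes described here are 10 regulators of neuronal RNA: the splicing factors Rbfox1, Rbfox2 and Rbfox3, the RNA-stabilising proteins Elavl2, Elavl3 and Elavl4, the RNA-binding proteins Celf4 and Nova1, and the polypyrimidine tract binding proteins Ptbp1 and Ptbp2. They were chosen by name, and every probe that the platform annotation pairs with them was used. Of 16593 genes with a probe on the array they make up 9, with 18 probes, because no probe is paired with Nova1 in that annotation. Expression was measured on 8 Illumina bead arrays of C57BL/6 mouse cells, which read each transcript as the brightness of beads that carry a probe. The NSC group held 5 samples of neural stem cells made from embryonic stem cells, negative for Tau-RedStar and maintained in Euromed-N with N2, FGF2 and EGF. The Neuron group held 3 samples of their progeny after 4 days in N2B27, a serum-free differentiation medium, and replating in Neurobasal with B27. The neurons were purified by flow cytometry for RedStar, a red fluorescent protein under the Tau (Mapt) promoter, so they are the cells in which that promoter was active and not all neurons of the culture. The labels do not say whether the replicates came from separate cultures, and the p-values below cover no more than the spread between these samples, part or all of which may be technical.

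These proteins share out the work of making a neuronal transcriptome. In non-neuronal cells and progenitors PTBP1 holds back the inclusion of neuronal exons, among them an exon of Ptbp2 without which that messenger is degraded, and the fall of PTBP1 with the appearance of PTBP2 is a known step of neuronal differentiation. RBFOX and NOVA proteins promote or block exons according to where they bind, and the neuronal ELAVL proteins (HuB, HuC and HuD) bind U-rich stretches and act on stability and splicing. RBFOX3 is the NeuN antigen, widely used to mark neurons that have left the cell cycle. The arrays read the amount of transcript at each probe and not the inclusion of an exon.

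The starts of 4 of these genes are shown because they carry the main contrasts: Rbfox3 and Elavl2, which were higher in neurons, Ptbp1, which was lower, and Ptbp2, whose probe stayed at background. Each window runs from 250 bases before to 50 bases after the listed start in RefSeq (build GRCm38.p6), 5′ to 3′ on the gene's strand, with each CG dinucleotide in capitals, since the series as a whole concerns epigenetic marks. RefSeq windows were used for 8 of the 10 genes, and a gene without one here may still have a listed start. For Elavl2 the most upstream of its 6 listed starts is shown.
Rbfox3 (chr11:118760992-118761291, minus strand): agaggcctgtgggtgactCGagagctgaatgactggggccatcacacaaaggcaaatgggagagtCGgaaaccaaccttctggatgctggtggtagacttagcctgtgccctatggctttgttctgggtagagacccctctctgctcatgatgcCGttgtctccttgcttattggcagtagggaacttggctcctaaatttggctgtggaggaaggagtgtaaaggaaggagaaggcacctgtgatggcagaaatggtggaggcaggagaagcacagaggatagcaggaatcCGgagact
Elavl2 (chr4:91399935-91400234, minus strand): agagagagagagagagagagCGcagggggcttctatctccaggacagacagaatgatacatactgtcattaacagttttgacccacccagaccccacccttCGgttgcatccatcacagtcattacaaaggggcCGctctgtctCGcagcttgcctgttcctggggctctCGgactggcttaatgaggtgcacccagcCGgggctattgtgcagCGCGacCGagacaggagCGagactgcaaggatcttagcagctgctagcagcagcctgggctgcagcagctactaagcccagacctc
Ptbp1 (chr10:79854182-79854481, plus strand): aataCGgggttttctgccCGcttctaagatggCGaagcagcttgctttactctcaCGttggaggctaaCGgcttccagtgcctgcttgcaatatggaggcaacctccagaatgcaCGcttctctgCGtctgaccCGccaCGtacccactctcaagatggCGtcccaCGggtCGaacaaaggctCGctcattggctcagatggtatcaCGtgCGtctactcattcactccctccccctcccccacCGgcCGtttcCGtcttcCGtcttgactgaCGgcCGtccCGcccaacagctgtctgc
Ptbp2 (chr3:119783339-119783638, minus strand): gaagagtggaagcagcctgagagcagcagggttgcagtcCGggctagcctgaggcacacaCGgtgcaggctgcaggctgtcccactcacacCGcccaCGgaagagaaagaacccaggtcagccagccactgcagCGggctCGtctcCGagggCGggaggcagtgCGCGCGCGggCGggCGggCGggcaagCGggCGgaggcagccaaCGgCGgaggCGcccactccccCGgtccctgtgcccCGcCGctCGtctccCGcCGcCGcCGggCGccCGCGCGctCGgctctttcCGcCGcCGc
The Rbfox3 window holds 4 CG dinucleotides, the Elavl2 window 10, the Ptbp1 window 22 and the Ptbp2 window 36, where the median over 32817 RefSeq windows is 7. The other Elavl2 starts hold more, up to 27. The only Rbfox3 start with a window lies inside the gene, which runs to 118911597 on chr11. Its count therefore does not describe the upstream end of that gene. The Ptbp2 window also lies short of the upstream end of its gene, at 119784647 on chr3. Windows with at least as many CG dinucleotides make up 68.6% of all for Rbfox3, 43.4% for Elavl2, 23.1% for Ptbp1 and 6.24% for Ptbp2. These counts describe the sequence alone, since methylation is not part of the arrays.

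Whether a probe could be read depended on its brightness. A probe was taken as above background on an array when its detection p was below 0.01, and it was tested when this held on at least 3 arrays. That left 8 probes of 5 genes: Rbfox2, Rbfox3, Elavl2, Celf4 and Ptbp1. The other genes with a probe, Rbfox1, Elavl3, Elavl4 and Ptbp2, have 8 probes in all and none of them was above background on any array. Over the whole array 44.6% of genes with a probe were tested. The arrays had median signals of 80.3 to 84.7, and the dimmest detected probe on each read 91.2 to 95.8, so signals near 80 carry no information on the amount of transcript. Several textbook neuronal markers were at background as well: Tubb3, Stmn2, Syt1, Snap25, Nefl and Nefm were above it on no array, while Mapt and Dcx were above it in the 3 neuron samples and in none of the NSCs, and Map2 in all 8 samples. A probe at background is therefore not a measurement that the gene is silent.

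Rbfox3 rose most, and Rbfox2 did not pass the test. In NSCs the signal of the informative Rbfox3 probe was 81.3, 78.1, 75.8, 78.9 and 67.8, and in neurons it was 586.4, 531.4 and 642.4. It was thus not above background on any NSC array and far above it on every neuron array, and the groups did not overlap. After background correction and quantile normalization its level was 4.55 ± 0.16 (SD, n = 5) in NSCs and 8.89 ± 0.23 (SD, n = 3) in neurons on the log2 scale. With this background correction Rbfox3 was at least 13.0-fold higher in neurons, a log2 bound of 3.70. The fitted log2 difference was 4.34 (SE 0.13), but it depends on a background level in NSCs and is 2.81 without background correction, below that bound. No p is given for it, since the probe passed the detection filter through the neuron arrays alone. In bulk samples such as these a larger share of cells with the transcript and more transcript per cell cannot be told apart. The other Rbfox3 probe was at background everywhere, at 56.9 to 77.4 in NSCs and 62.9 to 80.1 in neurons, although the annotation pairs both with the same transcript.

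**Figure D1:**
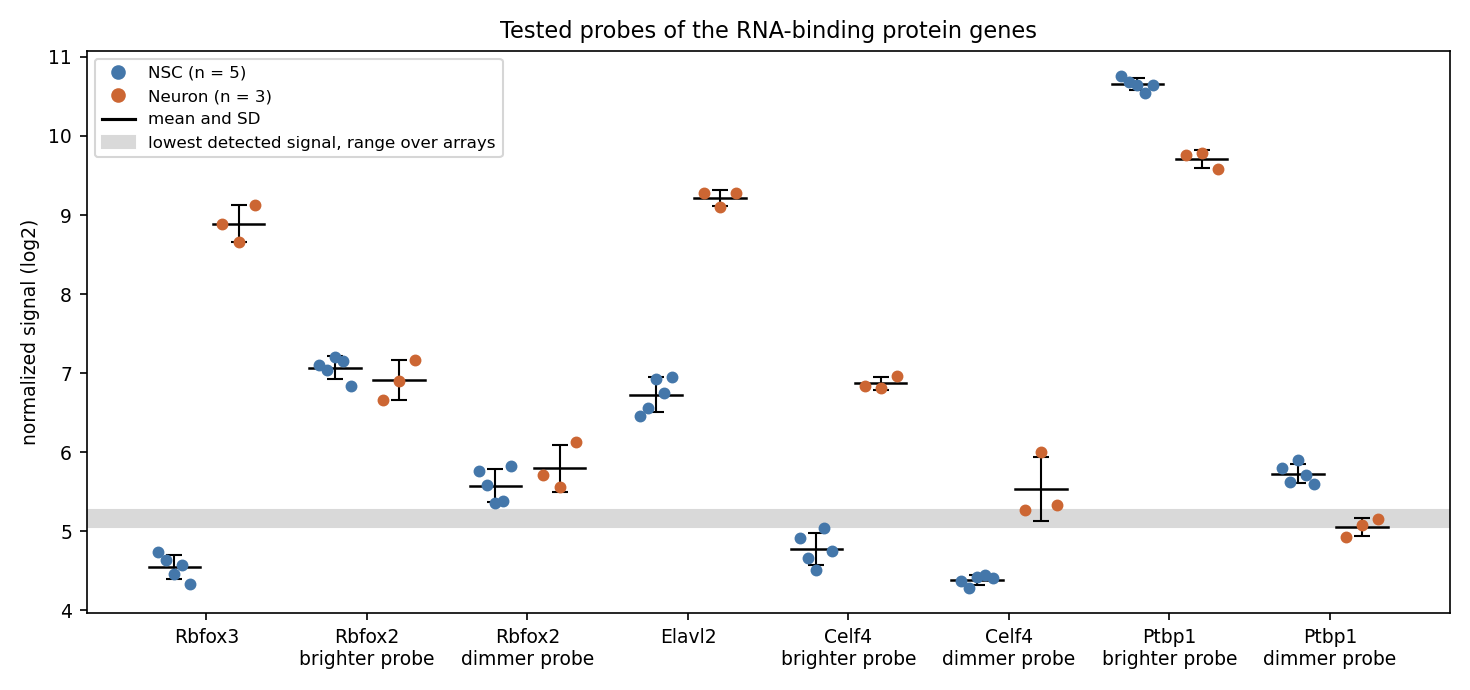
Normalized log2 signal of the 8 tested probes of Rbfox3, Rbfox2, Elavl2, Celf4 and Ptbp1 on each array (blue, 5 NSC arrays; orange, 3 neuron arrays), with the mean and SD as black lines; the grey band is the lowest signal of any detected probe, which ran from 5.05 to 5.27 over the arrays. Rbfox3 and Celf4 lie below the band in NSCs and, except for the dimmer Celf4 probe on Neuron 1 at its upper edge (5.26), above it in neurons, both Rbfox2 probes overlap between groups, and both Ptbp1 probes are lower in neurons.

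Rbfox2, the family member expressed widely outside the nervous system too, was above background on all 8 arrays with both of its probes. The brighter probe read 185.5, 174.4, 205.7, 191.0 and 169.1 in NSCs and 166.6, 199.5 and 206.3 in neurons, and the groups overlapped. Its log2 level was 7.07 ± 0.14 (SD, n = 5) and 6.91 ± 0.25 (SD, n = 3), a difference of -0.16 with a 95% interval from -0.44 to 0.13 (limma adjusted p = 0.318). The dimmer probe gave 0.22, with an interval from -0.13 to 0.56 (limma adjusted p = 0.244). The direction of Rbfox2 depended on the processing, with 0.049 under median scaling and 0.031 for the mean of both probes, and neither was called. The within-array difference between Rbfox3 and Rbfox2, on their brighter probes, was 4.50 higher in neurons than in NSCs on the log2 scale, or 2.91 without background correction. It is given with no test, since Rbfox3 was at background in NSCs and was measured only because it was bright in neurons. Rbfox1, which is abundant in mature neurons, gave 58.4 to 80.7 in NSCs and 64.7 to 78.4 in neurons over its 3 probes, all at background.

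Among the neuronal ELAVL genes Elavl2 rose and the others gave no reading. Elavl2 (HuB) has a bright probe that read 139.3, 142.3, 181.4, 159.7 and 177.4 in NSCs and 740.0, 691.3 and 704.3 in neurons. Both groups were above background on every array and did not overlap, so its change is a measured one on both sides. Its log2 level went from 6.73 ± 0.22 (SD, n = 5) to 9.22 ± 0.10 (SD, n = 3), a difference of 2.49 (SE 0.13, 95% interval 2.20 to 2.78, limma adjusted p = 2.82e-08), or 5.61-fold. Only 0.671% of the 5812 genes detected on all 8 arrays had a higher difference. The second Elavl2 probe was at background in NSCs, at 70.7 to 84.6, and read 91.4, 117.4 and 121.7 in neurons. It was above background on Neuron 2 and Neuron 3 alone and so was not tested at 3 arrays. With detection on at least 2 arrays its fitted log2 difference was 1.04. No p is given for it, since the probe passes that filter through neuron arrays alone and a fall could not have been seen. Elavl3 (HuC), often used as an early neuronal marker, has 1 probe, at 62.6 to 73.0 in NSCs and 69.3 to 73.5 in neurons. Elavl4 (HuD) has 3 probes, at 63.5 to 85.8 in NSCs and 68.5 to 88.8 in neurons. The lowest detection p among them was 0.0301, on Neuron 3 for 1 Elavl4 probe, which misses the threshold of 0.01.

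**Figure D2:**
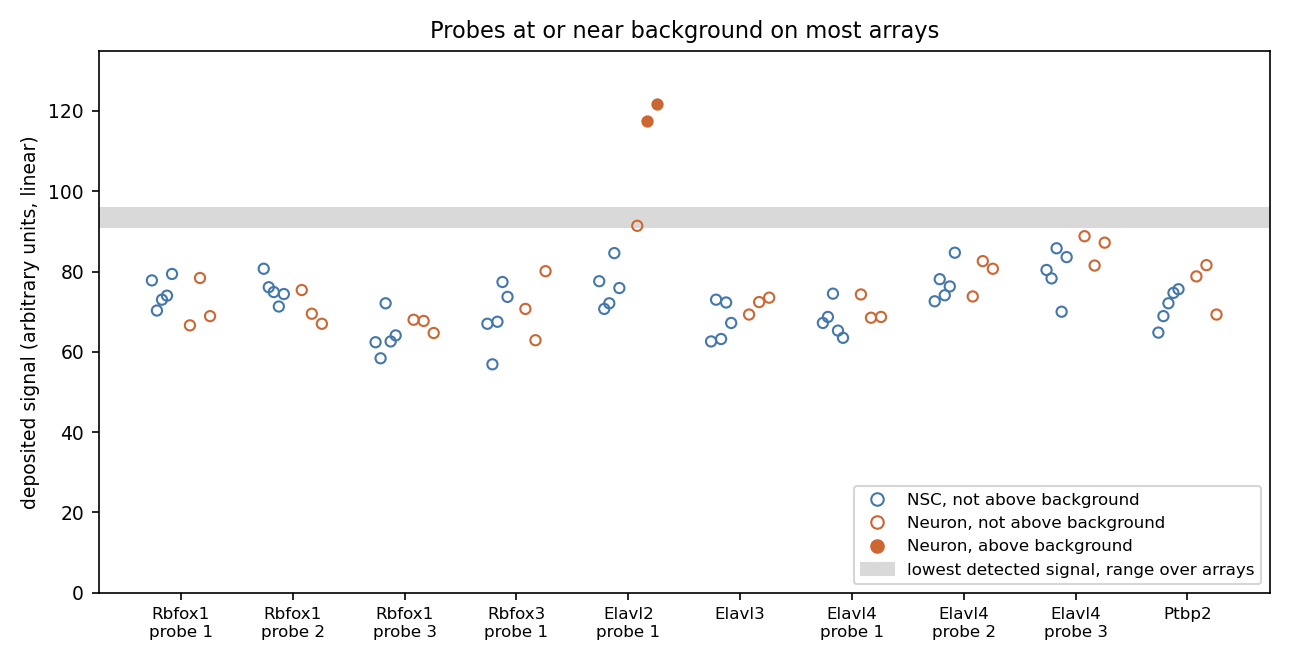
Deposited linear signal, in arbitrary units, of the 10 member probes that were not tested, on each array (blue, NSC; orange, neuron; filled, above background); the grey band is the lowest signal of a detected probe over the arrays, 91.2 to 95.8. Apart from the second Elavl2 probe on Neuron 2 and Neuron 3, at 117.4 and 121.7, no point is above background.

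Celf4, a CELF family protein enriched in neurons that binds messenger 3′ ends and acts on their stability and translation, was higher in neurons on both probes. The brighter probe read 85.5, 78.9, 77.7, 91.0 and 84.0 in NSCs and 179.6, 190.5 and 186.2 in neurons. The dimmer probe read 67.8, 62.3, 74.1, 74.1 and 72.0 in NSCs and 97.6, 133.1 and 96.6 in neurons. Neither was above background on an NSC array and both were on every neuron array. With the main background correction Celf4 was at least 3.19-fold higher by the brighter probe, a log2 bound of 1.68, and at least 1.26-fold by the dimmer. The fitted log2 differences were 2.09 (SE 0.13) and 1.15 (SE 0.15), and the former was 1.07 without background correction, below its bound. Neuron 2 was the brightest of the neuron arrays on the dimmer probe. The gap between the dimmer and the brighter Celf4 probe changed by -0.95 between the groups, or by -0.48 without background correction. It is given with no test, since both probes were at background in NSCs and were measured only because they were bright in neurons. Since neither Rbfox3 nor Celf4 was above background in NSCs, both were tested because they were bright in neurons, and a fall of either could not have been seen. No p is given for either gene.

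Ptbp1 fell in the neurons and remained bright. Its main probe read 1729.6, 1552.1, 1678.3, 1441.6 and 1586.8 in NSCs and 993.9, 1067.3 and 855.5 in neurons. Every neuron array was below every NSC array and all were far above background. The log2 level went from 10.65 ± 0.08 (SD, n = 5) to 9.71 ± 0.11 (SD, n = 3), a difference of -0.94 (SE 0.10, 95% interval -1.16 to -0.73, limma adjusted p = 6.66e-06). On the linear scale the NSC level was 1.92 times the neuron level, and 10.3% of the genes detected on all 8 arrays had a lower difference than Ptbp1. The second Ptbp1 probe, which the annotation pairs with another transcript of the gene, was dim. It read 109.5, 101.9, 119.0, 108.8 and 106.0 in NSCs and 88.0, 95.1 and 91.7 in neurons, where Neuron 1 was not above background. Its difference was -0.68 (SE 0.11, limma adjusted p = 0.000188), or -0.29 without background correction. The gap between both Ptbp1 probes changed by 0.27 (two-sided exact permutation p = 0.107, adjusted p = 0.143 over 3 probe pairs), and that between the Rbfox2 probes by 0.37 (p = 0.143, adjusted p = 0.143, by the same exact test), and neither passed. The Ptbp1 gap was larger without background correction, at 0.61, and with an offset of 50, at 0.54 (p = 0.0357 and adjusted p = 0.0536 in each, by the same exact test). The Rbfox2 gap was 0.21 without background correction.

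The other side of the Ptbp1 to Ptbp2 balance could not be measured. The only Ptbp2 probe read 64.8, 68.9, 72.1, 74.7 and 75.6 in NSCs and 78.8, 81.6 and 69.3 in neurons, with a lowest detection p of 0.172. The groups overlapped and no array was above background, so no fold is given. Taken as it stands, the log2 difference of Ptbp1 minus Ptbp2 within an array was 6.44, 6.30, 6.26, 6.09 and 6.15 in NSCs and 5.15, 5.16 and 5.19 in neurons. Its absolute size has no meaning, because the probes differ in brightness. The mean moved by -1.08 between the groups, against -0.94 for Ptbp1 alone. With Ptbp2 at background this shift reads Ptbp1 against background, and the planned test of the balance was not run. Whether Ptbp2 rose in these neurons is not shown by its probe.

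**Figure D3:**
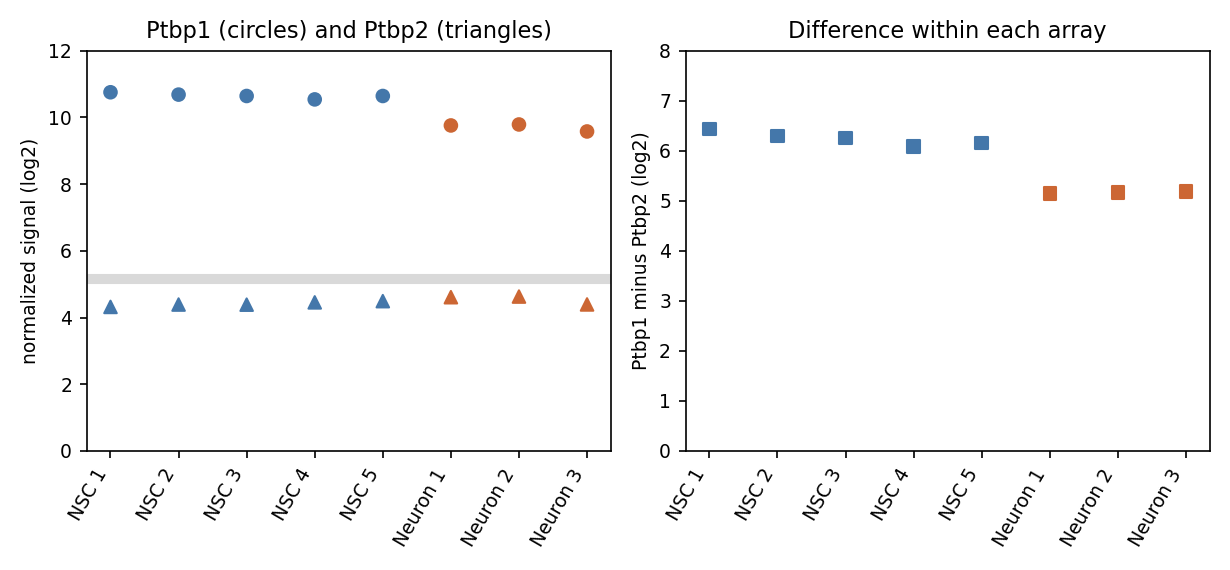
Left, normalized log2 signal of the brighter Ptbp1 probe (circles) and the only Ptbp2 probe (triangles) on each array, with the lowest detected signal as a grey band; right, Ptbp1 minus Ptbp2 within each array (blue, NSC; orange, neuron). Ptbp1 drops from 10.65 to 9.71 on average, Ptbp2 stays below the band on all 8 arrays, and the difference moves from 6.25 to 5.17.

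Of the 3 regulators above background on every array, Elavl2 rose, Ptbp1 fell and Rbfox2 did not pass. Among all 7407 tested genes 64.6% were called, 35.4% higher and 29.2% lower in neurons. Among the 5812 genes detected on all 8 arrays 63.8% were called, 35.6% higher and 28.2% lower, so that a call as such does not set a gene apart on these arrays. The groups did not overlap for 61.1% of tested genes. What differs among the regulators is size. With the main background correction Elavl2 changed 5.61-fold and Rbfox3 at least 13.0-fold, while the change of Ptbp1 was 1.92-fold. Without background correction the log2 differences were 1.99 for Elavl2, 2.81 for Rbfox3 and -0.90 for Ptbp1. The genes nearest to each regulator over the 8 arrays, by Euclidean distance between gene-centred log2 values, were Scg2, a granin of secretory vesicles, and the gap junction gene Gjd2 for Rbfox3 (distances 0.48 and 0.48). For Elavl2 they were Tmem145 and Pkia, an inhibitor of protein kinase A (0.33 and 0.41), and for Celf4 Enox1 and Txnip (0.36 and 0.36). For Ptbp1 they were Hmgcs1, an enzyme of cholesterol synthesis, and Nhp2, a component of small nucleolar ribonucleoproteins (0.14 and 0.15), and for Rbfox2 Rbm44 and Pcgf3 (0.20 and 0.21).

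Close relatives of the regulators moved both ways. Of 10, 8 had a probe and 6 were tested: 1 was higher in neurons, 2 were lower and 3 did not pass, with a median difference of -0.15 beside 0.06 over all tested genes. Celf2, a splicing factor of the Celf4 family, went from 8.69 ± 0.31 (SD, n = 5) to 9.50 ± 0.16 (SD, n = 3), a rise of 0.81 (SE 0.17, limma adjusted p = 0.00151), while its second probe at 0.41 did not pass (limma adjusted p = 0.104). Hnrnpl, a splicing factor related to the PTB proteins, fell by 0.54 on the log2 scale (SE 0.11, limma adjusted p = 0.00114). Ptbp3 was the other gene called lower, at -0.32 (limma adjusted p = 0.0360), and was above background on 1 of the 3 neuron arrays. The Ptbp3 call was lost without background correction (-0.13, limma adjusted p = 0.145), with an offset of 50, median scaling, the authors' values or no filter, and when NSC 1, NSC 4 or any 1 of the neuron arrays was left out (-0.36 to -0.25, limma adjusted p = 0.0511 to 0.142). The widely expressed Elavl1 (HuR) was at -0.24 (limma adjusted p = 0.313) and Celf1 at -0.06 (limma adjusted p = 0.634), and neither passed. Nova2 and Celf3 were not above background on enough arrays to be tested.

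**Figure D4:**
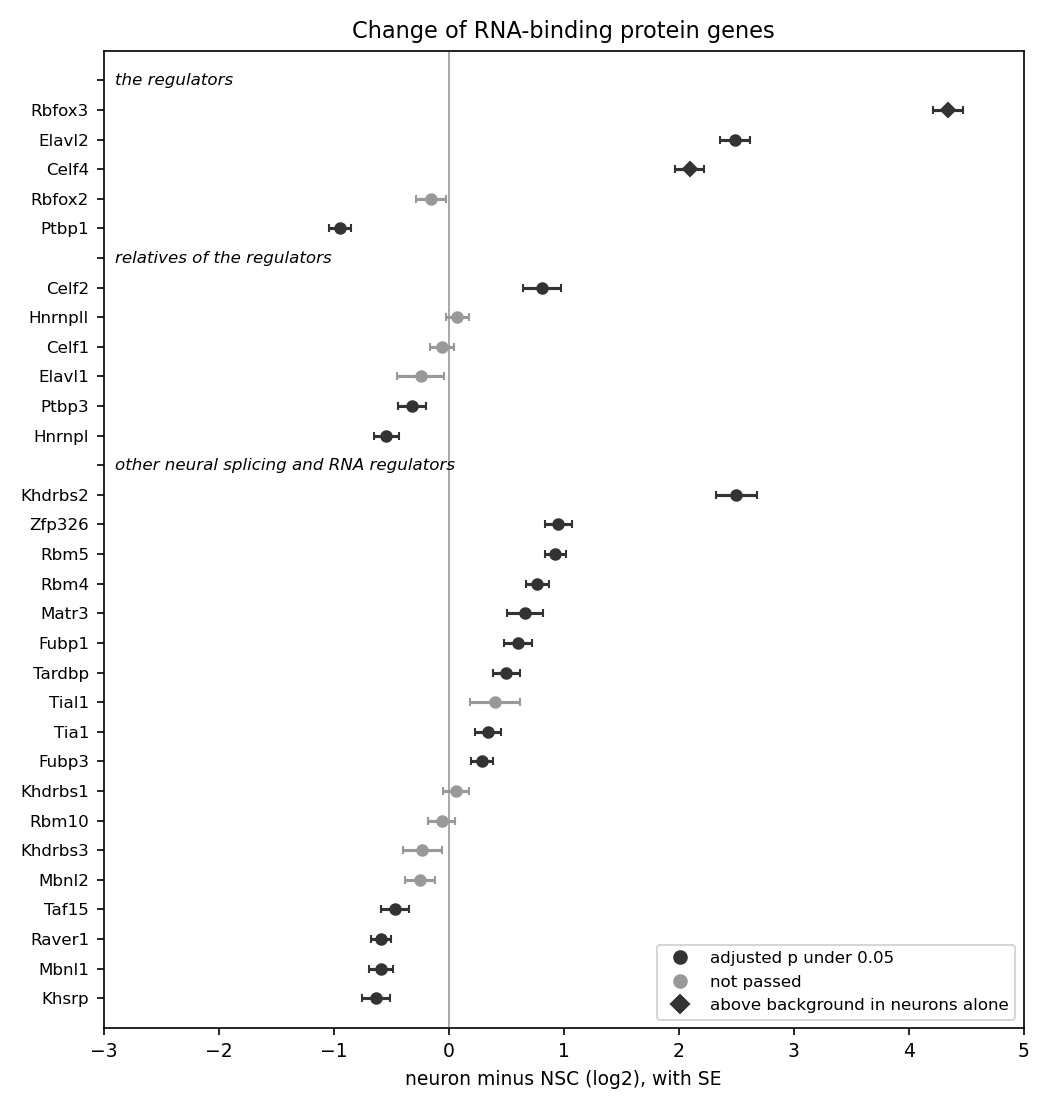
Neuron minus NSC log2 difference, with its SE, of the tested regulators, their relatives and other neural splicing and RNA regulators (dark, adjusted p below 0.05; grey, not passed; diamonds, above background in neurons alone). The dark colour of the diamonds, Rbfox3 and Celf4, is not a test result, since both passed the detection filter through the neuron arrays alone. Rbfox3, Elavl2, Celf4 and Khdrbs2 lie above 2, and every other gene drawn lies between -0.94 and 0.95.

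Of 27 other neural splicing and RNA regulators, 25 had a probe and 18 were tested, of which 9 were higher, 4 lower and 5 did not pass (72.2% called, median 0.32). Over all tested genes 64.6% were called. The rise of Khdrbs2 (SLM1), a splicing factor found in neurons, was of the size of that of Elavl2, at 2.50 (SE 0.18, limma adjusted p = 3.91e-07), but its probe was above background on 2 of the 5 NSC arrays. Its relative Khdrbs1 (SAM68) did not pass at 0.06 (limma adjusted p = 0.658). Zfp326, part of a complex that links transcription to splicing, rose by 0.95 (SE 0.12), although its other probes, at 0.06 and -0.02, did not pass and the mean of its probes gave 0.33, and the splicing factor Rbm5 rose by 0.93 (SE 0.09), with 1.05 on its second probe. Khsrp, which promotes the decay of AU-rich messengers, fell by 0.63 on the log2 scale (SE 0.12), with a difference of -0.40 under median scaling, and Mbnl1, a regulator of developmental splicing, fell by 0.59 (SE 0.11). Raver1, a partner of PTBP1 in splicing repression, was also called lower, at -0.59 (limma adjusted p = 0.000121). Srrm4, the neuronal microexon factor, was not above background on enough arrays to be tested.

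Of 29 RNA-binding proteins of translation and transport 15 were tested, with 4 higher, 4 lower and 7 not passing (53.3% called, median 0.15). Over all tested genes 64.6% were called. Msi2, a translational regulator of stem cells, fell by 1.01 on the log2 scale (SE 0.11) and the poly(A)-binding protein gene Pabpc1 fell by 0.81 (SE 0.21). Stau1, which carries messengers along microtubules, rose by 0.77 (SE 0.17), and Syncrip by 0.49 (SE 0.15), a call that was lost without Neuron 1 (0.43, limma adjusted p = 0.0574) or Neuron 3 (0.41, limma adjusted p = 0.0649). Of 17 tested SR proteins and partners 7 were higher and 4 lower (64.7% called), and of 11 tested hnRNP proteins 4 were higher and 4 lower (72.7% called). The SR share is thus close to the 64.6% of all tested genes. In these lists the kinase gene Srpk3 rose by 2.71 (SE 0.21) and Hnrnph1 by 1.09 (SE 0.14), Hnrnpa2b1 fell by 1.17 on the log2 scale (SE 0.11), and Srsf5 (0.70), Hnrnpm (0.64), Srsf9 (-0.52) and Hnrnpf (-0.69) were called too. The second Hnrnpa2b1 probe gave a smaller difference, -0.42 (limma adjusted p = 0.0153). Srrm2 was called at -0.44, but was -0.23 and not called under median scaling (limma adjusted p = 0.116) and -0.05 with the mean of its probes (limma adjusted p = 0.674).

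Genes known as targets of these regulators moved both ways. Of 22, 17 had a probe and 14 were tested, with 5 higher, 6 lower and 3 not passing (78.6% called, median -0.16). Over all tested genes 64.6% were called. Bdnf, whose messenger ELAVL proteins bind, rose by 2.05 (SE 0.10, limma adjusted p = 1.46e-08), and Cltb, a clathrin light chain with a neuronal exon, by 1.77 (SE 0.12, limma adjusted p = 1.80e-07). The second Cltb probe gave 1.03. Gap43, the growth cone gene whose messenger Elavl4 stabilises, was detected in every neuron sample but in none of the NSCs, at least 1.09-fold higher. Cdkn1a, the cell cycle inhibitor, fell by 3.45 on the log2 scale (SE 0.10), with -3.10 and -3.74 on its other probes, and Camk2b, a kinase with spliced variants in neurons, fell by 2.75 (SE 0.10). Pkm, whose exon choice depends on PTBP1, was called lower at -0.90 (limma adjusted p = 2.45e-05). Dlg4 (PSD-95), whose transcript PTBP1 and PTBP2 keep low through exon skipping, did not pass at -0.26 (limma adjusted p = 0.156). Exon inclusion of these genes was not measured.

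Other cell markers moved with the groups. The summed background-corrected signal of 4 dividing cell markers (Top2a, Cdk1, Mcm3 and Pcna) was 2660 to 3152 in NSCs and 26.5 to 45.1 in neurons, where none of them was above background. For the 9 neural stem cell and radial glia markers it was 17377 to 18713 in NSCs and 6567 to 7251 in neurons, with all 9 above background in both groups. Most of that sum was Slc1a3, a glutamate transporter of radial glia, and the other 8 genes summed to 3951 to 4395 and 2988 to 3026. Of the 9, Sox2 was called higher in neurons (0.37), 6 were called lower, and Nes (-0.16) and Notch1 (0.56) did not pass. The second Sox2 probe gave 0.16 and was not called (limma adjusted p = 0.479). For the 9 neuron markers the sum was 1859 to 2909 and 4104 to 6042, most of it Map2, and 48.3 to 55.6 and 1112 to 1161 without Map2. Oligodendrocyte lineage markers rose in the sort, with sums of 464 to 602 in NSCs and 1164 to 1454 in neurons over 6 genes, mostly from Olig2. Without it they were 30.6 to 45.3 and 388.0 to 523.6. Olig2, above background on all 8 arrays, was called higher. Pdgfra and Gpr17 were above background on every neuron array and on no NSC array, so they were tested only because they were bright in neurons. Mbp, Mog and Mag were above background on no array. The astrocyte markers Gfap, Aqp4 and Apoe were above background on no array, and the sum over 7 astrocyte markers was 1492 to 1765 in NSCs and 93.5 to 102.2 in neurons. That sum was mainly the gap junction gene Gja1, without which it was 85.6 to 136.9 and 57.0 to 84.2. Of 3 astrocyte markers tested, Gja1 and Slc1a2 were called lower and Aldh1l1 did not pass (limma adjusted p = 0.0545). The part of these cells in the changes of the regulators was not tested. All arrays were on 1 chip, with NSCs at its first 5 positions and neurons at its last 3, so position, medium and sorting cannot be told apart from cell type.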

How the data were processed

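Total RNA of 5 NSC and 3 Neuron samples was hybridised to Illumina MouseRef-8 v2.0 arrays. The authors deposited the average bead signal, an intensity neither background-subtracted nor scaled, and a detection score, a fraction from 0 to 1 (1 minus it served as detection p). Also deposited by the authors were log2 values, which equalled the quantile-normalized log2 signal within 5e-09. The submitters' processing notes name limma with no version. 

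The signals were processed with limma 3.58.1 in R 4.3.3: background was corrected from the detection p (neqc, offset 16), arrays were quantile normalized and log2 taken. Of 25697 probes, 10499 passed the detection filter (p below 0.01, 3 arrays or more) and represent 7407 genes through their brightest probe. Group was the only term of lmFit and eBayes, with Benjamini-Hochberg adjustment over all tested probes and a threshold of 0.05. The "at least" folds set the mean of the detected group against the dim group, where each array counted with its lowest detected value, or with the probe's value if that was higher. These folds hold for this background correction alone. Array number limits the precision. Differences between probes of a gene within an array were compared by exact permutation tests (two-sided, 56 splits, smallest p 0.0357). The p planned for Rbfox3 minus Rbfox2 is not given, since the detection filter fixed its outcome. For the same reason no p is given for Rbfox3, Celf4, the second Elavl2 probe or the gap between the Celf4 probes. The adjustment over 3 probe pairs still counts that gap. The planned test of the Ptbp1 to Ptbp2 balance was not run, because Ptbp2 was at background. The members and lists were chosen with earlier results of these data known. Outside members, each list names its 2 largest called rises and falls among genes detected on all 8 arrays and the brightest gene seen in 1 group alone; the nearest 2 genes of each member and the marker genes are named too. Khdrbs2, Ptbp3, Raver1, Pkm, Dlg4, Elavl1, Celf1, Khdrbs1 and the untested genes were named after their values were seen. The code was run on simulated signals in which a far smaller share of probes changed than was called here, and no result rests on that run. Alternatives were other background corrections, normalizations and filters, the authors' values, the mean of probes, a block on replicate number, and each array left out in turn. Omitting a neuron array under a 2-array filter was a later addition, made with the data seen.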

Additional observations from a re-analysis of the deposited data

How the results depend on the processing

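Elavl2 and Ptbp1 kept their direction and their call under every alternative. Rbfox3 and Celf4 stayed higher in neurons wherever they were fitted. Their calls are not counted here, since both passed the detection filter through the neuron arrays alone. Neither Rbfox3 nor Celf4 passed the filter with detection on all 8 arrays or, at 3 arrays, without a neuron array. A filter of 2 arrays with a neuron array left out, chosen after seeing the data, gave 4.21 to 4.43 for Rbfox3 and 2.04 to 2.10 for Celf4. Leaving out each array gave -0.99 to -0.88 for Ptbp1, 2.42 to 2.55 for Elavl2, and -1.20 to -0.79 for the gap between the Celf4 probes. Background correction set the size of dim genes: without it Rbfox3 was at 2.81 and Celf4 at 1.07, and with the authors' values at 2.80 and 1.07, while with an offset of 50 Celf4 was at 1.30. The gap between the Ptbp1 probes was 0.61 and that between the Celf4 probes -0.48 both on the authors' values and without background correction. The Rbfox3 minus Rbfox2 change was 2.91 without background correction and 2.91 with the authors' values. Median scaling moved the median of all tested genes from 0.06 to 0.23, turned Rbfox2 to 0.049, changed the Ptbp1 minus Ptbp2 shift to -0.89 and raised the share of calls that were higher from 54.8% to 66.1% (49.8% with cyclic loess). The mean of probes turned Rbfox2 to 0.031.

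Among the relatives 1 gene was called lower in place of 2, the lost call being Ptbp3, without background correction, with an offset of 50, median scaling, the authors' values, no filter or detection on all 8 arrays, and 2 were higher in place of 1 with median scaling, no filter or detection on at least 2 arrays. Leaving out each array gave 1 to 2 relatives lower (Ptbp3 was called in 3 of 8 cases) and 2 to 5 translation and transport genes higher. With detection on 2 arrays and a neuron array left out, the relatives had 1 to 2 higher and 1 lower, and without Neuron 1 the translation and transport genes had 2 higher. Median scaling left 2 SR genes and 2 hnRNP genes lower in place of 4 each, and the mean of probes 2 hnRNP genes. Same-numbered NSC and neuron samples showed no sign of pairing, with deviations correlated at -0.02 to 0.01. So few samples cannot show that they were unpaired. With the replicate block Rbfox3 was at 4.28 and Celf4 at 2.18. Elavl2 was at 2.57 (limma adjusted p = 9.18e-06) and Ptbp1 at -0.99 (limma adjusted p = 0.000444). Among the 47 results the block could be fitted for, no call changed and no count moved by over 1.5 times. Signals near background limit what Rbfox1, Elavl3, Elavl4 and Ptbp2 can show.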
